A study of Mus musculus with 18 samples.

Results

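Alveolar type 1 cell genes were followed through lungs of mice kept in hypoxia or normoxia. The set held 10 genes, Ager, Aqp5, Hopx, Pdpn, Cav1, Rtkn2, Akap5, Clic5, Emp2 and Gprc5a, each chosen by its symbol in the deposited table of 23356 features, and all 10 were found there. All 18 libraries were of whole lung from male C57BL/6 mice aged 12 to 16 weeks, which had spent 4 weeks in their exposure after entering it at 8 to 12 weeks. The groups were beta-arrestin 1 -/- in hypoxia and in normoxia, mice labelled beta-arrestin 2 -/- in hypoxia and in normoxia, and wild type in hypoxia and in normoxia, with 3 libraries in each of the 6 groups, numbered 0 to 2. Hypoxia meant air at the pressure found at 18000 feet (PAO2 near 70 mmHg), and normoxia meant air at normal altitude (PAO2 near 150 mmHg). The genotype labels give -/- alone and name no promoter, Cre line or tissue. Nothing in them ties a library to one mouse, and the p-values therefore rest on library-to-library spread that may be technical.

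Alveolar type 1 cells are the flat, very thin epithelial cells that cover most of the gas exchange surface of the lung. They lie against the capillary endothelium, move water and ions across the alveolar wall, and arise from alveolar type 2 cells, the cuboidal cells that make surfactant, during growth and repair. The 10 genes fall into the receptor Ager, which encodes RAGE, the water channel Aqp5, the transcriptional cofactor Hopx, the membrane glycoprotein podoplanin (Pdpn), the caveolar coat protein caveolin-1 (Cav1), the rhotekin family protein Rtkn2, the kinase anchor Akap5, the chloride intracellular channel family protein Clic5, the tetraspan protein Emp2 and the orphan receptor Gprc5a. In bulk lung RNA, fewer cells of a type and less RNA per cell cannot be told apart.

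The level of each gene was looked at first, which cannot show from which cells its RNA came. The 10 genes had 3131 to 108235 estimated fragments in a library, none was at 0 in any library, and all passed the filter on low counts, together with 15388 genes in all. Markers of alveolar type 2 cells were also present. The 10 type 1 genes summed to 9395.1 to 13818.3 CPM (counts scaled to library size) in a library, and 13 type 2 markers to 8447.1 to 14283.4 CPM. The type 2 sum covers only the 13 of 15 listed markers that had values here, so these sums do not compare the cell types. Of the 10 genes, Pdpn is also made by lymphatic endothelium and mesothelium, Cav1 by endothelium, adipocytes and fibroblasts, and Hopx by heart muscle. In this whole lung RNA their levels are sums over those cells.

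Library totals were between 16806806 and 25980876 estimated fragments. The smallest belonged to 2 libraries, beta-arrestin 1 -/- hypoxia replicate 2 at 16806806 and labelled beta-arrestin 2 -/- normoxia replicate 0 at 18250814. The same 2 libraries had the lowest mean correlation of log2 CPM with the other libraries, 0.957 and 0.96, where the others had 0.966 to 0.979. Some results that rest on them are given with and without them, and others only with them. Arrb1, the gene deleted in beta-arrestin 1 -/- mice, had 104.2 ± 15.3 CPM in beta-arrestin 1 -/- normoxia against 471.9 ± 7.35 CPM in wild type normoxia (SD, n = 3 each; edgeR adjusted p = 4.01e-08, log2 change -2.18 ± 0.12 SE). The label beta-arrestin 2 -/- was not borne out by a low Arrb2, which had 40.7 ± 5.19 CPM in its normoxia libraries against 32.3 ± 2.55 CPM in wild type ones (SD, n = 3 each; edgeR adjusted p = 0.256, log2 change 0.33). The libraries are called by their label throughout.

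Promoter sequences are shown for 3 genes on which the comparisons below turn or which differ in their motifs. They are the 300 bases from 250 before to 50 after the start of transcription, taken from RefSeq on GRCm38.p6 and written 5′ to 3′ along the strand of the gene. Capitals mark the core of the hypoxia response element, ACGTG or GCGTG, read on both strands, and CACTTGAG or CACTCAAG, a site of NKX2-1, a factor of lung epithelium, also on both strands. Where the core is a palindrome, CACGTG, its matches on the 2 strands overlap.

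Aqp5, chr15:99590778-99591077, plus strand: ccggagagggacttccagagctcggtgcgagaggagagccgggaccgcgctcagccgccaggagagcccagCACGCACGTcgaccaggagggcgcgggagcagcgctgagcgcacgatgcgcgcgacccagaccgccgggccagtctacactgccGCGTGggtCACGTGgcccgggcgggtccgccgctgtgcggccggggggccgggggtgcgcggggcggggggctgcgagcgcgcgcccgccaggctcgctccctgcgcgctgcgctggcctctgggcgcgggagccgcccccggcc

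Hopx, inner start, chr5:77095218-77095517, minus strand: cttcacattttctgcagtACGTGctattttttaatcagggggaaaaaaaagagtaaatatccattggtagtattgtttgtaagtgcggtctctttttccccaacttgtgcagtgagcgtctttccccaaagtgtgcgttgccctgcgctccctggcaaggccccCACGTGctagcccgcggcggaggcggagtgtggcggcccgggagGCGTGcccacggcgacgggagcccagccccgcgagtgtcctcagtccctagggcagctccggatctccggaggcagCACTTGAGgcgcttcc

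Clic5, chr17:44188322-44188621, plus strand: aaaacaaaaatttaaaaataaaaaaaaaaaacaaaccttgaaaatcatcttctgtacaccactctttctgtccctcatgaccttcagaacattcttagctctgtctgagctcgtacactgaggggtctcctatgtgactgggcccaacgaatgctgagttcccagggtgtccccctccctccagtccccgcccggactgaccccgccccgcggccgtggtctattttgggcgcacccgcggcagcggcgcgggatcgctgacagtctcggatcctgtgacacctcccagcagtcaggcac

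The Aqp5 window held 5 matches to the hypoxia response core, at positions -179, -175, -95, -87 and -86 from the start, the last pair being the 2 strands of 1 CACGTG. The Hopx window held 4 such matches and 1 to the NKX2-1 site at position 35, and the Clic5 window held none. Of the 8 genes with a RefSeq promoter in the table, with 10 windows between them, 5 had the hypoxia response core, in 6 of the 10 windows, against 43.8% of all 32851 promoter windows of the same length. GGAATG, the site of TEAD factors, was in 0 of the 10 windows and in 14.7% of all promoters, and the NKX2-1 site was in 1 of the 10 and in 2.3% of all. Gprc5a and Rtkn2 were the other 2 genes. A match is a run of letters and was not tested for binding.

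Per unit of transcript length, Ager stood above the other type 1 genes. Levels are given here in FPKM (fragments per kilobase, scaled to depth), as mean ± SD over 18 libraries. Ager had 2609.5 ± 545.0 FPKM, with a lowest library of 2003.5, a median of 2489.0 and a highest of 4409.9. Its mean ranked 9 among the features kept. Ranks leave out the 5 features of status HIDATA, whose levels are not known here. Hopx followed at 1189.0 ± 175.0 FPKM (rank 22) and Cav1 at 690.7 ± 99.6 FPKM (rank 47). Gprc5a had 411.8 ± 56.9 FPKM and Emp2 406.5 ± 55.4 FPKM. Aqp5 had 265.9 ± 44.9 FPKM and Clic5 217.1 ± 46.7 FPKM. Pdpn, at 112.5 ± 13.1 FPKM, Akap5, at 74.8 ± 12.3 FPKM, and Rtkn2, at 62.4 ± 9.25 FPKM, were the lowest of the 10, and yet 94.09% of the features kept lay below Rtkn2.

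The order of the genes was steady at the top and loose in the middle. The ranges of Ager, Hopx, Cav1 and Gprc5a lay apart, each above the next in 18 of 18 libraries, and so did those of Pdpn and Akap5. Gprc5a was above Emp2 in 9 of 18 libraries, a mean log2 ratio of 0.02 ± 0.24 (SD over libraries), so this pair had no order beyond its spread. Aqp5 was above Clic5 in 14 of 18 libraries and Akap5 above Rtkn2 in 14 of 18. Emp2 over Aqp5 and Clic5 over Pdpn kept their order in 18 of 18 libraries although their ranges over libraries overlapped.

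**Figure D1:**
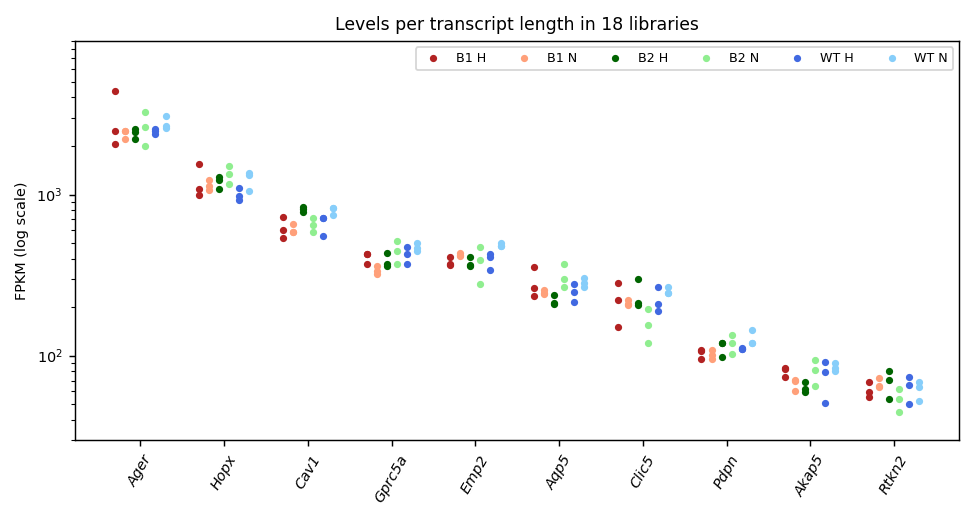
Level of each of the 10 type 1 genes in FPKM on a log axis, 1 point per library, in the groups beta-arrestin 1 -/- (B1), labelled beta-arrestin 2 -/- (B2) and wild type (WT) in hypoxia (H) and normoxia (N). Ager lies highest with 2003.5 to 4409.9 FPKM and Rtkn2 among the lowest with 45.0 to 79.8 FPKM.

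Within groups, Ager and Clic5 varied most. The SD of log2 CPM within groups was 0.29 for Ager and 0.285 for Clic5, against 0.139 for Pdpn, and its median over the 10 genes was 0.189. Over all tested genes the median was 0.209, and over the 938 genes with a level at or above that of the lowest type 1 gene it was 0.159. From the lowest to the highest library CPM differed 2.47-fold for Clic5, 2.21-fold for Ager and 1.53-fold for Pdpn. Ager was highest in beta-arrestin 1 -/- hypoxia replicate 2 and lowest in labelled beta-arrestin 2 -/- normoxia replicate 0. Clic5 was lowest in that normoxia library too. These are the 2 libraries of lowest total, and the spreads were not computed without them.

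The receptor gene Ager showed no change that passed the test in any comparison. Its level was 3323.8, 2735.2 and 5951.9 CPM in beta-arrestin 1 -/- hypoxia, against 2934.9, 3299.5 and 3281.8 CPM in beta-arrestin 1 -/- normoxia. It was 2944.0, 3391.0 and 3228.9 CPM in labelled beta-arrestin 2 -/- hypoxia, against 2698.9, 3550.2 and 4367.0 CPM in labelled beta-arrestin 2 -/- normoxia. In wild type it was 3160.1, 3390.2 and 3311.3 CPM in hypoxia, against 3445.7, 4113.4 and 3524.3 CPM in normoxia. The library with 5951.9 CPM is the one of lowest total, and it sets the sign of the Ager response in beta-arrestin 1 -/- lungs. The log2 change there was 0.34 ± 0.22 (SE, adjusted p = 0.438, edgeR) with all libraries and -0.07 (adjusted p = 0.9) without that library. The wild type groups did not overlap, with every hypoxia library below every normoxia library, at a log2 change of -0.17 ± 0.22 (adjusted p = 0.766).

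Aqp5, the apical water channel of type 1 cells, was the 1 gene of the 10 that passed the test anywhere, and it fell in hypoxia in the lungs labelled beta-arrestin 2 -/-. Its level was 321.3, 363.3 and 318.9 CPM in labelled beta-arrestin 2 -/- hypoxia, against 410.5, 461.7 and 567.6 CPM in labelled beta-arrestin 2 -/- normoxia. Every hypoxia library of this label lay below every normoxia library. The log2 change was -0.52 ± 0.15 (SE, 95% interval -0.84 to -0.20, adjusted p = 0.0226, edgeR over all 15388 genes), 0.70 of the normoxia level. In the authors' deposited table the same pair of groups had Aqp5 lower in hypoxia with q = 0.0183917.

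The wild type and beta-arrestin 1 -/- responses of Aqp5 did not pass. Wild type lungs had 328.5, 380.1 and 425.6 CPM in hypoxia, against 462.6, 403.7 and 427.4 CPM in normoxia, and these groups overlapped (log2 change -0.19 ± 0.15, 95% interval -0.51 to 0.13). Beta-arrestin 1 -/- lungs had 399.1, 357.3 and 551.8 CPM in hypoxia, against 369.6, 389.7 and 366.0 CPM in normoxia (log2 change 0.22 ± 0.15, 95% interval -0.10 to 0.53). The response under the label beta-arrestin 2 -/- was not shown to differ from that of wild type, with a difference of responses of -0.33 ± 0.21 (SE, adjusted p = 0.322, edgeR). The Aqp5 call rested on few libraries. It passed under all 8 other settings that kept every library or left out the 2 of lowest total (adjusted p 0.00271 to 0.0304), but was lost when labelled beta-arrestin 2 -/- hypoxia replicate 0, hypoxia replicate 2 or normoxia replicate 2 was left out, with adjusted p up to 0.0987.

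As context, 21.9% of all tested genes passed in labelled beta-arrestin 2 -/- hypoxia against normoxia, 10.8% of all genes being lower, and the 1 call among 10 type 1 genes was under that share. Groups did not overlap for 3 of the 10 genes and for 47.9% of all genes. The median log2 change of the 10 genes was -0.12, and that of all genes was -0.04. The 95% intervals of the 10 genes reached from -0.84 to 1.05.

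Clic5, which links the plasma membrane to the actin cytoskeleton through ezrin-type proteins in other epithelia, was lowest in labelled beta-arrestin 2 -/- normoxia. Clic5 had 1914.1, 1356.9 and 1324.1 CPM in labelled beta-arrestin 2 -/- hypoxia, against 774.2, 1010.5 and 1253.7 CPM in labelled beta-arrestin 2 -/- normoxia. Wild type lungs had 1717.9, 1348.1 and 1221.2 CPM in hypoxia, against 1568.9, 1706.1 and 1577.1 CPM in normoxia. Beta-arrestin 1 -/- lungs had 1813.3, 1427.1 and 973.4 CPM in hypoxia, against 1328.6, 1321.2 and 1426.1 CPM in normoxia. The 3 normoxia libraries labelled beta-arrestin 2 -/- lay below all their hypoxia counterparts and below all wild type normoxia libraries.

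Neither difference of Clic5 passed edgeR's test. The log2 change was 0.60 ± 0.21 (SE, adjusted p = 0.0567) in labelled beta-arrestin 2 -/- hypoxia against normoxia, and -0.68 ± 0.21 (adjusted p = 0.0559) in labelled beta-arrestin 2 -/- normoxia against wild type normoxia. Both passed with DESeq2, at adjusted p = 0.0248 and 0.0182. The authors' deposited table gave q = 0.0156177 for the first, with Clic5 higher in hypoxia, and q = 0.00571602 for the second, with Clic5 lower under the label. Leaving out labelled beta-arrestin 2 -/- normoxia replicate 2 moved them to 0.79 (adjusted p = 0.0283) and -0.87 (adjusted p = 0.0279) with edgeR. That was the 1 of 6 fits without 1 library in which each passed. Over the 6 fits the first ran from 0.40 to 0.79 with adjusted p up to 0.247, and the second from -0.87 to -0.52 with adjusted p up to 0.232.

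Cav1, whose protein coats the caveolae of type 1 cells and of endothelium, had opposite signs of response under the label beta-arrestin 2 -/- and in wild type. Its level was 2209.6, 2053.2 and 2128.9 CPM in labelled beta-arrestin 2 -/- hypoxia, against 1570.0, 1724.5 and 1904.2 CPM in labelled beta-arrestin 2 -/- normoxia, with every hypoxia library higher. Wild type lungs had 1891.4, 1898.6 and 1464.3 CPM in hypoxia, against 2171.9, 2182.0 and 1971.3 CPM in normoxia, with every hypoxia library lower. Neither response passed the test. The log2 changes were 0.30 ± 0.13 (SE, adjusted p = 0.0985, edgeR) and -0.27 ± 0.13 (adjusted p = 0.256). Their difference was 0.57 ± 0.18 (95% interval 0.19 to 0.94, adjusted p = 0.0672). Beta-arrestin 1 -/- lungs had 1918.6, 1598.3 and 1436.8 CPM in hypoxia, against 1537.2, 1741.6 and 1558.4 CPM in normoxia, which overlapped (log2 change 0.03 ± 0.13).

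Endothelium also makes Cav1, and most of its markers had the same sign as Cav1 in each of these responses. Under the label beta-arrestin 2 -/-, 9 of 11 log2 changes were positive with a median of 0.31, 5 markers were apart and higher in hypoxia, 3 rose (Pecam1, Tmem100 and Calcrl) and 1, Plvap, fell. Of all genes 47.9% were apart there in either direction and 21.9% were called. In wild type 10 of 11 markers were negative with a median of -0.22, 6 were apart and lower in hypoxia, and 2 fell (Plvap and Ednrb). Of all genes 11.5% were apart and lower in wild type hypoxia and 4.76% were called. Plvap fell by 2.91 ± 0.25 (SE, adjusted p = 1.45e-05, edgeR) on the log2 scale in labelled beta-arrestin 2 -/- hypoxia, averaging 139.1 CPM, against 1048.9 CPM in normoxia. The sum over all 11 genes, Plvap included, was 8015.6 to 8235.5 CPM in labelled beta-arrestin 2 -/- hypoxia, against 6527.0 to 8242.5 CPM in labelled beta-arrestin 2 -/- normoxia. In wild type it was 6227.7 to 8274.4 CPM in hypoxia, against 9215.9 to 10349.6 CPM in normoxia. None of the 11 markers was at 0 in any library, and their part in the Cav1 values was not tested.

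**Figure D2:**
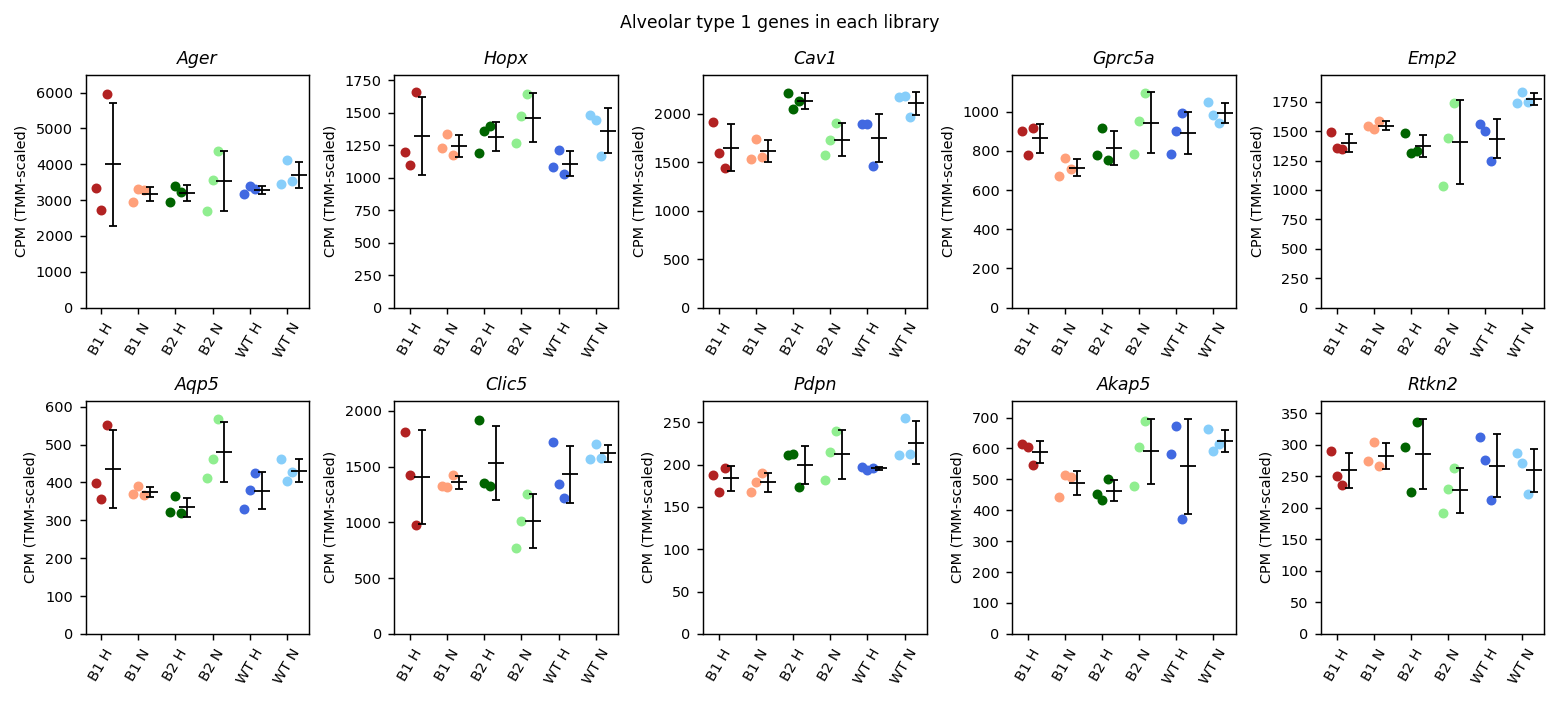
CPM of the 10 type 1 genes in every library (points) with mean and SD of each group (bars, n = 3), for beta-arrestin 1 -/- (B1), labelled beta-arrestin 2 -/- (B2) and wild type (WT) lungs in hypoxia (H) and normoxia (N). Aqp5 is lower in all 3 B2 H libraries (318.9 to 363.3 CPM) than in B2 N (410.5 to 567.6 CPM), and 1 B1 H library carries the highest Ager value, 5951.9 CPM.

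In wild type lungs the 10 genes leaned low in hypoxia without any of them passing. Of the 10, 0 were called, against 4.76% of all genes, and 1, Cav1, had an unadjusted p under 0.05 (0.0495), against 19.4% of all genes. The log2 change was negative for 9 genes and positive for Rtkn2. The median was -0.20 (all genes 0.00), and the 95% intervals of the 10 reached from -0.64 to 0.39. Ager, Cav1, Emp2 and Pdpn were lower in every hypoxia library than in any normoxia library, 4 of 10, while 11.5% of all genes did not overlap in that direction.

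Emp2, a tetraspan protein that regulates integrins at the cell surface, had 1561.4, 1501.1 and 1248.8 CPM in wild type hypoxia, against 1738.1, 1829.4 and 1746.6 CPM in wild type normoxia (log2 change -0.30 ± 0.14 SE, adjusted p = 0.262, edgeR). Pdpn, the podoplanin gene, had 197.4, 193.7 and 195.9 CPM in hypoxia, against 210.9, 255.4 and 212.1 CPM in normoxia (log2 change -0.21 ± 0.11). Both wild type pairs were apart, though by little for Pdpn. Hopx, a homeodomain protein without DNA binding of its own, had 1083.1, 1212.8 and 1026.4 CPM in hypoxia, against 1480.3, 1441.7 and 1163.3 CPM in normoxia (log2 change -0.30 ± 0.15). The Hopx groups overlapped through normoxia replicate 2.

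Markers of other cell types also differed in the same wild type libraries. Heart muscle markers summed to 981.9 to 1765.6 CPM over 9 genes in wild type hypoxia, against 73.5 to 405.7 CPM in wild type normoxia, and Sln was the 1 marker at 0 in some library. Of the 9 heart muscle markers 0 passed the test, against 4.76% of all genes. Lymphatic endothelial markers summed to 296.6 to 439.0 CPM over 6 genes in hypoxia, against 973.8 to 1197.0 CPM in normoxia. Of these 6 genes 4 rose and 1 fell, with a median log2 change of 1.09, where 4.76% of all genes were called. The lower sum thus ran against most of its genes. Of the 7 listed markers Ccl21a was at 0 in some library. Type 2 markers overlapped, at 9966.3 to 11401.0 CPM in hypoxia and 10157.6 to 13617.8 CPM in normoxia. The part of these cells in the type 1 values was not tested.

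In beta-arrestin 1 -/- hypoxia against normoxia 8 of the 10 genes had a positive log2 change, Rtkn2 and Emp2 had a negative one, and none passed. Of the 10 genes, 0 were called in beta-arrestin 1 -/- hypoxia against normoxia (2.95% of all genes), and 1, Gprc5a, had an unadjusted p under 0.05, against 17.9% of all genes with edgeR. The median log2 change was 0.06 (all genes 0.02) and the intervals reached from -0.47 to 0.81. Akap5, which anchors protein kinase A and calcineurin near receptors and channels, had 615.3, 604.2 and 546.4 CPM in hypoxia, against 443.5, 514.9 and 506.8 CPM in normoxia, with every hypoxia library higher (log2 change 0.27 ± 0.17 SE, adjusted p = 0.415). Gprc5a, a retinoic acid-induced orphan receptor, had 899.7, 777.9 and 915.1 CPM in hypoxia, against 672.3, 763.4 and 709.9 CPM in normoxia, also apart (log2 change 0.27 ± 0.13, adjusted p = 0.274). Emp2 was the 1 gene lower in every hypoxia library, with 1351.8 to 1490.2 CPM against 1515.9 to 1584.2 CPM in normoxia. These 3 of 10 stand beside 21.2% of all genes without overlap.

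Over the mean of the 3 hypoxia responses none of the 10 genes passed. There were 0 calls and 0 unadjusted p under 0.05 among the 10 with edgeR, while 19.4% of all genes were called. The median log2 change was -0.06 and the 95% intervals reached from -0.35 to 0.42. Without the 2 libraries of lowest total, 3 genes passed, all lower in hypoxia, namely Aqp5 (-0.26), Hopx (-0.22) and Emp2 (-0.21), where 28.3% of all genes were called. Rtkn2, of the rhotekin family, had 0.08 ± 0.10 (SE) in the mean of the responses, and no response of it passed in any line. It had 295.8, 225.3 and 335.4 CPM in labelled beta-arrestin 2 -/- hypoxia, against 191.8, 229.5 and 262.7 CPM in labelled beta-arrestin 2 -/- normoxia, which overlapped (log2 change 0.32 ± 0.17).

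**Figure D3:**
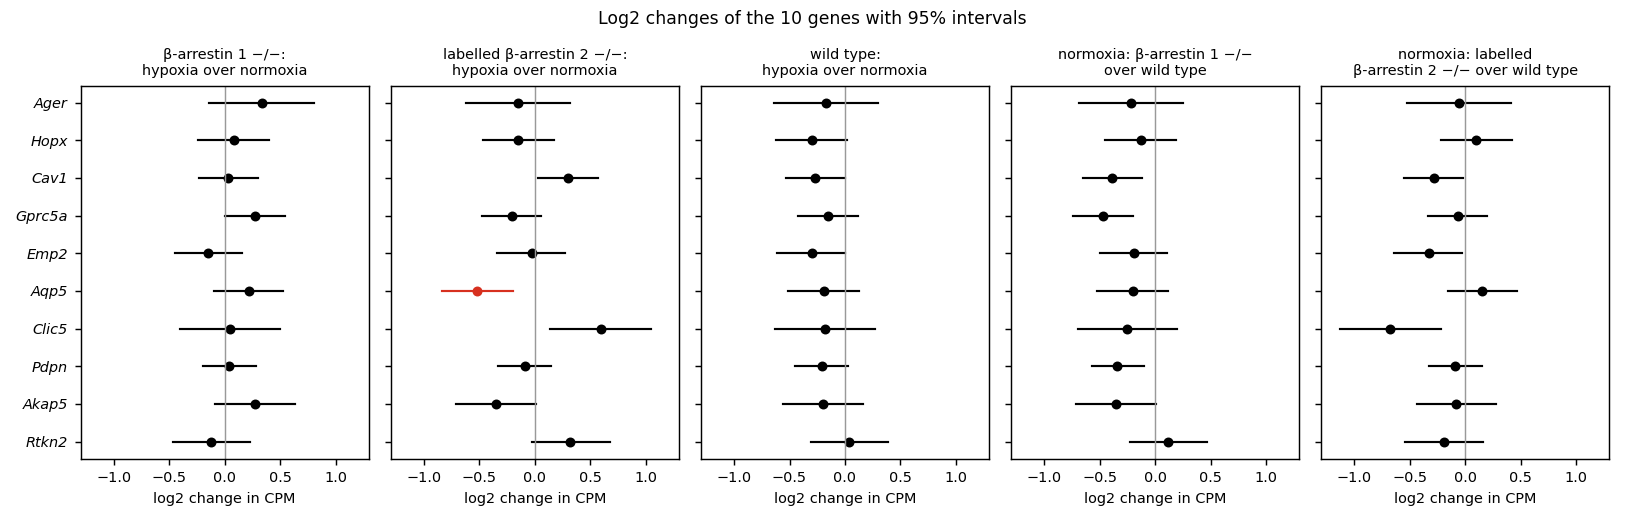
Log2 changes in CPM (points) with 95% intervals (lines) for the 10 type 1 genes, from hypoxia against normoxia in each line and from each line against wild type in normoxia. The red point is Aqp5 under the label beta-arrestin 2 -/- (-0.52), the 1 gene that passed the test.

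Compared with wild type in normoxia, beta-arrestin 1 -/- lungs had lower values for most type 1 genes, and none passed the test. The log2 change was negative for 9 of the 10 genes, with a median of -0.24 (all genes 0.00) and intervals from -0.74 to 0.47. In 8 of 10 genes every beta-arrestin 1 -/- library lay below every wild type library, while 11.8% of all genes did so, and the exceptions were Hopx and Rtkn2. Called genes were 0 of 10, against 0.221% of all genes, and 3 of 10 had an unadjusted p under 0.05, against 8.71% of all genes with edgeR.

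Gprc5a had the lowest p of them, with 672.3, 763.4 and 709.9 CPM in beta-arrestin 1 -/- normoxia, against 1048.2, 983.4 and 945.0 CPM in wild type normoxia. The log2 change was -0.47 ± 0.13 (SE, adjusted p = 0.181, edgeR), and Gprc5a passed with DESeq2 (adjusted p = 0.0298). Cav1 had 1537.2, 1741.6 and 1558.4 CPM in beta-arrestin 1 -/- normoxia, against 2171.9, 2182.0 and 1971.3 CPM in wild type normoxia (adjusted p = 0.312, log2 change -0.39 ± 0.13). Pdpn had 168.0, 179.3 and 190.4 CPM in beta-arrestin 1 -/- normoxia, against 210.9, 255.4 and 212.1 CPM in wild type normoxia (adjusted p = 0.33, log2 change -0.34 ± 0.11). All 3 pairs were apart. Lymphatic endothelial markers summed to 622.4 to 772.8 CPM over 6 genes in beta-arrestin 1 -/- normoxia, against 973.8 to 1197.0 CPM in wild type normoxia, with 4 of 6 apart and lower, 0 called and a median log2 change of -0.36. Of the 7 listed markers Ccl21a was at 0 in some library, and the part of these cells in the Pdpn values was not tested.

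In hypoxia the values of the same 2 genotypes overlapped for all 10 genes. None was apart between beta-arrestin 1 -/- and wild type hypoxia (9.79% of all genes), 0 were called (0.201% of all genes), and 0 had an unadjusted p under 0.05. The median log2 change was -0.03 and the intervals reached from -0.48 to 0.76. The difference between the hypoxia responses of beta-arrestin 1 -/- and wild type was positive in 9 of the 10 genes, with a median of 0.34 (all genes 0.03) and intervals from -0.66 to 1.17. It passed for 0 of the 10 and for 0% of all genes with edgeR, where 898 genes had an unadjusted p under 0.05, and for 9 genes with DESeq2. Since that contrast and the comparisons above use the same wild type libraries, they are not independent of each other. Heart muscle markers summed to 686.6 to 2003.7 CPM in beta-arrestin 1 -/- normoxia, against 73.5 to 405.7 CPM in wild type normoxia, and their part was not tested.

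Between lungs labelled beta-arrestin 2 -/- and wild type none of the 10 genes passed in normoxia. Clic5 and Cav1 lay apart and lower, 2 of 10 genes, a share near the 22.1% of all genes that did so. Called genes were 0 of 10, against 9.49% of all genes, and 3 of 10, namely Clic5, Cav1 and Emp2, had an unadjusted p under 0.05 with edgeR, against 31.6% of all genes. The median log2 change was -0.08 and the intervals reached from -1.13 to 0.47. In hypoxia, 0 of 10 were called (0.923% of all genes), and Cav1 was the 1 gene apart (8.39% of all genes were, in that direction), higher in labelled beta-arrestin 2 -/- hypoxia at 2053.2 to 2209.6 CPM than in wild type hypoxia at 1464.3 to 1898.6 CPM (log2 change 0.28 ± 0.13 SE, adjusted p = 0.387, edgeR). The difference of hypoxia responses from that of wild type passed for 0 of 10 and for 6.05% of all genes, with Cav1 and Clic5 under an unadjusted p of 0.05, 2 of 10 against 26.4% of all genes. Endothelial markers summed to 6527.0 to 8242.5 CPM in labelled beta-arrestin 2 -/- normoxia, against 9215.9 to 10349.6 CPM in wild type normoxia, with 4 of 11 lower by the test, and club cell markers to 5446.9 to 11508.2 CPM, against 3663.3 to 5690.8 CPM, with 5 of 6 higher. Their part in the type 1 values was not tested.

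The 10 genes did not vary as one set from library to library. After the mean of each group was taken off, they fell into blocks of 5 that divided by transcript length. Hopx, Ager, Aqp5, Pdpn and Gprc5a, whose longest protein-coding transcripts in GENCODE have 1261 to 2083 bases, correlated with each other at r = 0.40 to 0.84, with a median of 0.64 over 10 pairs. Cav1, Emp2, Rtkn2, Clic5 and Akap5, with 2746 to 6687 bases, did so at r = 0.47 to 0.81, with a median of 0.72. The 25 pairs across the blocks had r of -0.32 to 0.63, with a median of 0.09. Median rank correlations (Spearman) were 0.62, 0.72 and 0.04. Without the 2 libraries of lowest total the median r was 0.44, 0.65 and -0.02. The ranges were then 0.07 to 0.92, 0.30 to 0.87 and -0.34 to 0.61, so the division was less clear. Hopx, for 1, then had r = 0.61 with Cav1 of the other block and 0.07 with Pdpn of its own. The blocks were seen in these values first and the length limit of 2500 bases was set afterwards, so no p is given, and the 18 libraries behind each r share their depth and their makeup of cells.

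A contrast of long and short transcripts also ran through the libraries as a whole, taken here as log2 deviations from the mean over all 18 libraries. In beta-arrestin 1 -/- hypoxia replicate 2, genes in the upper tertile of length (4057 bases or more) lay below those in the lower tertile (2374 bases or less), written here as a difference of median deviations of -0.65, and the long type 1 genes lay below the short ones, with a difference of -0.55. The 3 normoxia libraries labelled beta-arrestin 2 -/- had -0.41, -0.17 and -0.17 over all genes and -0.31, -0.25 and -0.26 over the type 1 genes. Their hypoxia counterparts had 0.28, 0.02 and 0.08 over all genes and 0.28, -0.13 and 0.19 over the type 1 genes. Wild type normoxia libraries had 0.10, 0.15 and 0.18 over all genes. Aqp5 is a short gene and Clic5 a long one, and in labelled beta-arrestin 2 -/- hypoxia against normoxia they differ in the same directions as this contrast of the libraries. Its part in their values was not tested.

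**Figure D4:**
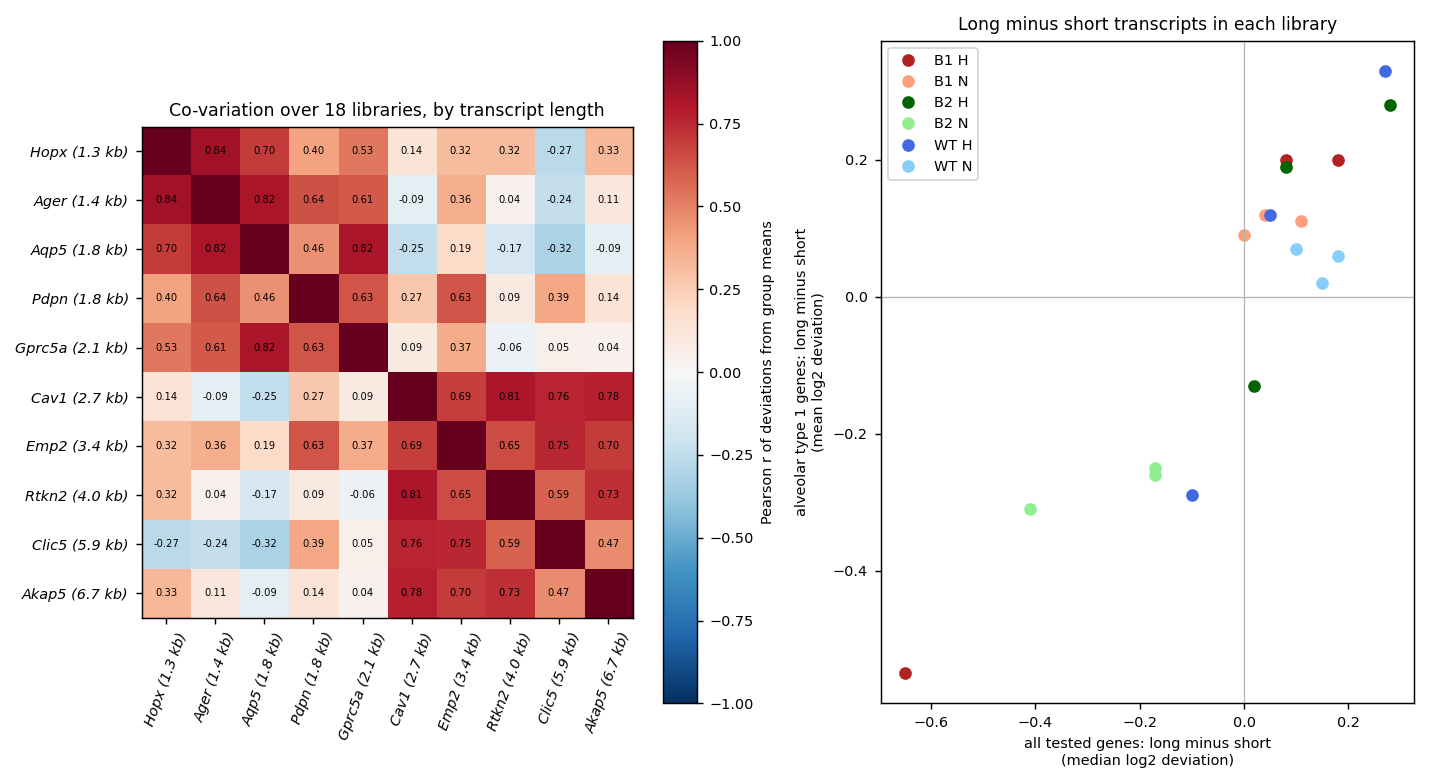
Left, Pearson r of deviations from group means over 18 libraries between the 10 type 1 genes, in order of transcript length, where pairs of short genes have a median r of 0.64 and pairs of long genes 0.72. Right, each library's long minus short difference in deviation from the mean of all libraries, over all tested genes (x, log2) and over the type 1 genes (y, log2), with beta-arrestin 1 -/- hypoxia replicate 2 at -0.65 and -0.55, for B1, B2 and WT libraries in hypoxia (H) and normoxia (N).

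Genes most like the type 1 genes were looked for among 12524 genes, those whose log2 CPM averaged 1 or more. Over the log2 CPM of 18 libraries Ager was most like Pef1 (Pearson r = 0.89), Tgm4 (0.87), Rnf130 (0.87), Dctn3 (0.85) and Ppib (0.85). Among the genes most like the mean standardized level of the 10 were Fgf1 (0.81), Slc39a8 (0.80), Igf2bp1 (0.77) and Klc3 (0.74). As deviations from group means, the genes most like that mean were Anxa5 (0.88), Slc39a8 (0.88), Ets2 (0.87), Pmp22 (0.86) and Fbxo25 (0.86). Slc39a8 stood in both lists. As deviations, Ager was most like Pdlim2 (0.94), Eif3h (0.94), Yipf1 (0.93), S100g (0.93) and Tmem37 (0.93), with no gene shared with its list over all libraries. These are the highest of many values and carry no p. They were not computed without the 2 libraries of lowest total. Among the 10 genes, as deviations, leaving those out took r of Ager with Aqp5 from 0.82 to 0.45. With Hopx it went from 0.84 to 0.52, with Pdpn from 0.64 to 0.63 and with Gprc5a from 0.61 to 0.60.

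A further 23 genes known from type 1 cells were counted beside the 10. In labelled beta-arrestin 2 -/- hypoxia against normoxia 3 of the 23 rose and 2 fell, against 21.9% of all genes called. Cyp2b10, a cytochrome P450 of lung epithelium, had 580.3, 513.1 and 553.0 CPM in labelled beta-arrestin 2 -/- hypoxia, against 238.8, 241.5 and 264.3 CPM in normoxia (log2 change 1.14 ± 0.16 SE, adjusted p = 0.000331, edgeR). Scnn1a, the α subunit of the epithelial sodium channel, had 645.6, 655.9 and 647.0 CPM in hypoxia, against 325.3, 381.5 and 426.1 CPM in normoxia (0.78 ± 0.12, adjusted p = 0.000503). Lmo7, an actin-associated junction protein, rose by 0.64 ± 0.15 (adjusted p = 0.00854). All 3 genes were apart between exposures.

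Ndnf, a secreted protein, fell to 60.8, 53.1 and 53.3 CPM in labelled beta-arrestin 2 -/- hypoxia, against 68.9, 96.2 and 142.6 CPM in normoxia (log2 change -0.88 ± 0.22 SE, adjusted p = 0.0105, edgeR). Its call was lost without normoxia replicate 2 (adjusted p = 0.054). Cldn18, the claudin of alveolar tight junctions, was the fifth, named after its values were seen, and fell by 0.43 ± 0.14 on the log2 scale (adjusted p = 0.034).

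The difference from the wild type response passed for 3 of the 23 and for 6.05% of all genes. This difference was 1.09 ± 0.22 (SE, adjusted p = 0.0145, edgeR) for Cyp2b10, 0.92 ± 0.21 (adjusted p = 0.0233) for Lmo7 and 0.70 ± 0.16 (adjusted p = 0.0257) for Scnn1a. The Cyp2b10 call remained when each of the 12 libraries concerned was left out. The Lmo7 call was lost without wild type normoxia replicate 1, wild type hypoxia replicate 2, labelled beta-arrestin 2 -/- normoxia replicate 0 or 1, or its hypoxia replicate 0 (adjusted p up to 0.0627). The Scnn1a call was lost without the same libraries or labelled beta-arrestin 2 -/- hypoxia replicate 2 (adjusted p up to 0.0655).

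The normoxia levels of these genes also differed. In labelled beta-arrestin 2 -/- normoxia against wild type normoxia 0 of the 23 rose and 4 fell, with 20 of 23 log2 changes negative and a median of -0.32 (all genes 0.04). Of all genes 9.49% were called there. Lmo7 had 407.9, 449.0 and 519.6 CPM under the label, against 725.3, 805.1 and 662.4 CPM in wild type normoxia (log2 change -0.67 ± 0.15 SE, adjusted p = 0.016, edgeR). Scnn1a had a log2 change of -0.51 ± 0.12 (adjusted p = 0.0182), Col4a3, a collagen of the alveolar basement membrane, -0.81 ± 0.24 (adjusted p = 0.0434) and Flrt3 -0.61 ± 0.19 (adjusted p = 0.0489). All 4 calls were lost without labelled beta-arrestin 2 -/- normoxia replicate 0 or 1 or without wild type normoxia replicate 1, and those of Col4a3 and Flrt3 also without wild type normoxia replicate 0 or 2. In labelled beta-arrestin 2 -/- hypoxia against wild type hypoxia 1 of the 23 passed, against 0.923% of all genes. It was Ndnf, which fell (-1.05 ± 0.22, adjusted p = 0.0278, edgeR). Its call was lost in 5 of 6 such fits, all but that without wild type hypoxia replicate 0.

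In wild type hypoxia 0 of the 23 genes passed with edgeR, against 4.76% of all genes. In beta-arrestin 1 -/- hypoxia 1 did, against 2.95% of all genes. It was Tspan8, a tetraspanin, which rose by 0.58 ± 0.15 (SE, adjusted p = 0.0431, edgeR). Its call was lost in 5 of 6 fits without 1 library, all but that without beta-arrestin 1 -/- hypoxia replicate 1. Over the mean of the 3 responses 4 of the 23 rose and 1 fell, where 19.4% of all genes were called. Scnn1a rose by 0.37 ± 0.07 (adjusted p = 0.00126) and Cyp2b10 by 0.45 ± 0.09 (adjusted p = 0.00261). Igfbp2, an insulin-like growth factor binding protein of mature type 1 cells, rose by 0.53 ± 0.16 (adjusted p = 0.0301), a call lost without any one of 6 libraries (replicate 2 of wild type normoxia and hypoxia, replicate 0 of beta-arrestin 1 -/- normoxia, replicates 0 and 1 of labelled beta-arrestin 2 -/- normoxia and replicate 1 of its hypoxia group). Its levels were 597.2, 512.9 and 994.1 CPM in beta-arrestin 1 -/- hypoxia, against 258.1, 369.6 and 401.7 CPM in normoxia, and 259.1, 475.4 and 322.6 CPM in labelled beta-arrestin 2 -/- hypoxia, against 311.0, 395.8 and 467.8 CPM in normoxia. The first pair was apart and the second overlapped. Sema3e, a secreted guidance protein, fell by 0.36 ± 0.10 (adjusted p = 0.0199). In beta-arrestin 1 -/- normoxia against wild type normoxia 0 of the 23 passed, with 22 log2 changes negative, a median of -0.33 and 16 of 23 genes apart and lower, while 11.8% of all genes were.

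**Figure D5:**
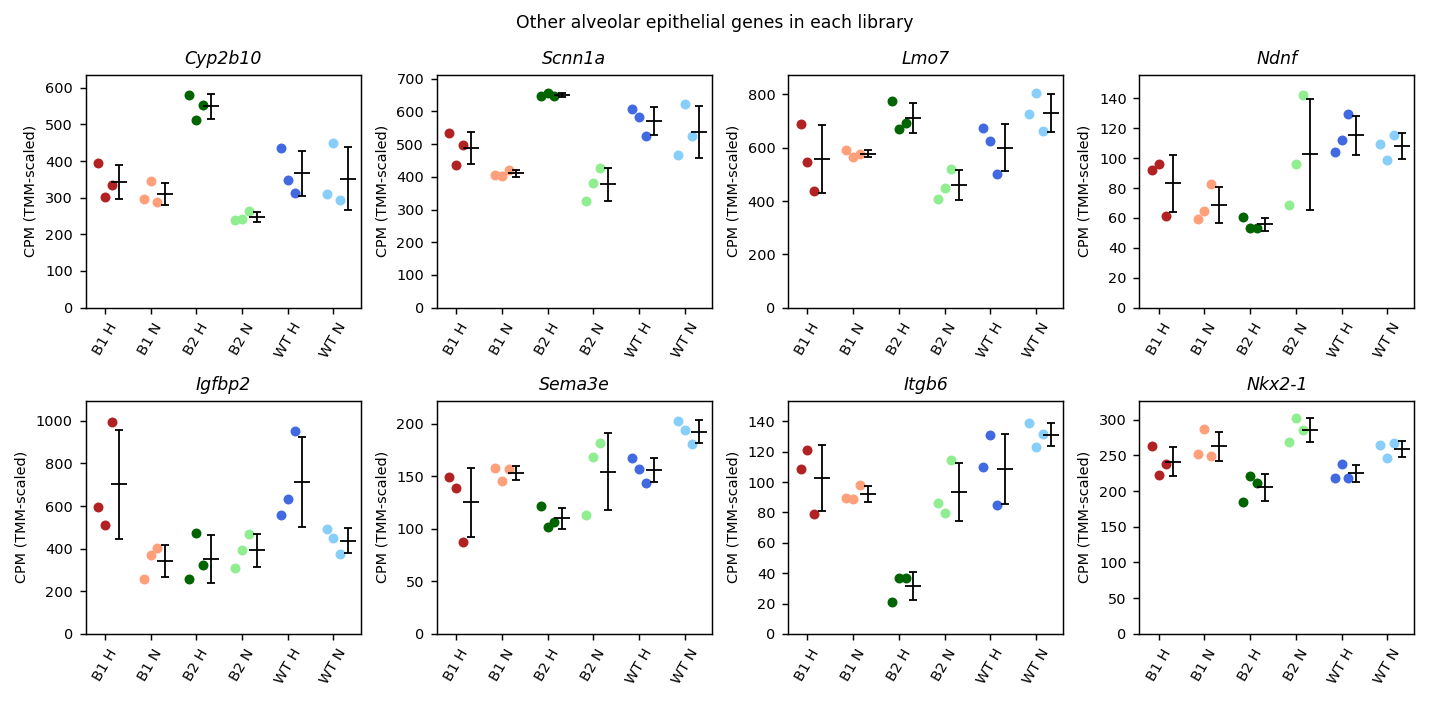
CPM in every library (points) with mean and SD of each group (bars, n = 3) for 6 further type 1 genes, the integrin gene Itgb6 and the epithelial factor gene Nkx2-1, in beta-arrestin 1 -/- (B1), labelled beta-arrestin 2 -/- (B2) and wild type (WT) lungs in hypoxia (H) and normoxia (N). Cyp2b10 is higher in B2 H (513.1 to 580.3 CPM) than in B2 N (238.8 to 264.3 CPM), and Itgb6 is lower in B2 H (21.2 to 36.8 CPM) than in B2 N (79.3 to 114.8 CPM).

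Genes of the transitional state that alveolar cells pass through on the way from type 2 to type 1 fell in part under the label beta-arrestin 2 -/-. Of 14 such genes 1 rose and 6 fell in labelled beta-arrestin 2 -/- hypoxia against normoxia, with 13 log2 changes negative and a median of -0.46 (all genes -0.04), where 21.9% of all genes were called and 10.8% were called lower. Itgb6, the β6 chain of an epithelial integrin that activates TGF-β, had 21.2, 36.6 and 36.8 CPM in hypoxia, against 85.9, 79.3 and 114.8 CPM in normoxia (log2 change -1.57 ± 0.21 SE, adjusted p = 0.000315, edgeR). It also stood below wild type hypoxia, which had 110.1, 131.0 and 84.6 CPM (log2 change -1.78 ± 0.22, adjusted p = 0.000328), and its response differed from that of wild type by -1.29 ± 0.30 (adjusted p = 0.0226). That last call was lost without wild type normoxia replicate 1 or wild type hypoxia replicate 1, with adjusted p up to 0.068.

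Hbegf, a ligand of the epidermal growth factor receptor, fell by 0.72 ± 0.15 (SE, adjusted p = 0.00362, edgeR) in labelled beta-arrestin 2 -/- hypoxia against normoxia, and Lgals3, galectin-3, fell by 0.63 ± 0.15 (adjusted p = 0.00817). Ndrg1, a stress-induced gene, rose by 0.62 ± 0.17 (adjusted p = 0.0156), a call lost without labelled beta-arrestin 2 -/- normoxia replicate 1 or hypoxia replicate 0. In wild type and in beta-arrestin 1 -/- lungs 0 of the 14 genes passed in hypoxia against normoxia with edgeR. Of all genes only 4.76% and 2.95% were called there, so 0 of 14 does not set these lungs apart. Mesothelial markers, a list that shares Krt19 with this one, summed to 402.1 to 538.7 CPM over 7 genes in labelled beta-arrestin 2 -/- hypoxia, against 772.8 to 1011.3 CPM in normoxia, and 5 of the 7 fell. None of the 7 was at 0 in any library, and their part was not tested.

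Among 19 regulators of type 1 fate and their targets, 3 rose and 1 fell in labelled beta-arrestin 2 -/- hypoxia against normoxia, a share near the 21.9% of all genes called there. Nkx2-1 had 184.4, 220.8 and 210.8 CPM in hypoxia, against 268.6, 301.9 and 285.0 CPM in normoxia (log2 change -0.47 ± 0.09 SE, adjusted p = 0.00276, edgeR). Tead2, a DNA-binding partner of YAP and TAZ, rose by 0.36 ± 0.10 (adjusted p = 0.0153), and the YAP targets Ctgf and Cyr61 rose by 0.69 ± 0.20 (adjusted p = 0.0252) and 1.34 ± 0.43 (adjusted p = 0.037). The calls of Tead2, Ctgf and Cyr61 were lost in 2, 3 and 4 of 6 fits that left out 1 library, among them all 3 without labelled beta-arrestin 2 -/- normoxia replicate 1, Tead2 also without hypoxia replicate 0, Ctgf and Cyr61 also without hypoxia replicate 1 or 2, and Cyr61 also without normoxia replicate 2. Over the mean of the 3 responses, 3 of the 19 rose and 2 fell (19.4% of all genes were called), and Nkx2-1 fell by 0.27 ± 0.05 (adjusted p = 0.00239) while Cyr61 rose by 1.61 ± 0.25 (adjusted p = 0.000408). Both calls remained in all 18 fits that left out 1 library.

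Of the markers of type 2 cells 1 gene passed in hypoxia. Among 13 tested genes, of 15 listed, 1 rose in wild type hypoxia, 1 in beta-arrestin 1 -/- hypoxia and 0 in labelled beta-arrestin 2 -/- hypoxia, and 0 fell. Of all genes 4.76%, 2.95% and 21.9% were called in these comparisons. Fabp5, a fatty acid binding protein, had 36.2, 50.7 and 79.0 CPM in beta-arrestin 1 -/- hypoxia, against 23.8, 19.3 and 18.9 CPM in normoxia, and 39.8, 53.2 and 42.9 CPM in wild type hypoxia, against 14.2, 12.1 and 16.4 CPM in normoxia. Over the mean of the 3 responses Fabp5 rose by 1.33 ± 0.18 (SE, adjusted p = 0.000148, edgeR). That call remained in all 18 fits without 1 library, but the wild type call (adjusted p = 0.00807) was lost without normoxia replicate 1 and the beta-arrestin 1 -/- call (adjusted p = 0.0249) without hypoxia replicate 2 or any normoxia library. Fabp5 is also made by endothelium and macrophages.

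Partners of the 10 gene products were counted in labelled beta-arrestin 2 -/- hypoxia against normoxia, where calls were most frequent (21.9% of all genes). Of 7 ligands of RAGE, 0 rose and 2 fell, S100a4 by 1.38 ± 0.29 (SE, adjusted p = 0.00454, edgeR) and S100a6 by 0.86 on the log2 scale. The S100a6 call was lost without labelled beta-arrestin 2 -/- normoxia replicate 0, hypoxia replicate 0 or hypoxia replicate 2. Of 10 other water channel and ion transport genes 1 rose and 1 fell, the vascular water channel Aqp1 by 0.50 ± 0.11 upward (adjusted p = 0.00604) and the chloride channel Cftr downward (-0.72 ± 0.16, adjusted p = 0.00632). Of 7 podoplanin partners 1 rose and 2 fell, among them the cytoskeletal linker Rdx (0.99 ± 0.19, adjusted p = 0.00285) and the hyaluronan receptor Cd44 (-0.57 ± 0.10, adjusted p = 0.0015). Of 17 Akap5 partners 3 rose and 0 fell, of 8 relatives and integrin partners of Emp2 the test called 2 higher and 1 lower, of 9 caveolar genes 1 rose and 0 fell, and of 4 other Clic genes and 2 other Gprc5 genes none passed.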

How the data were processed

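Lung RNA was enriched for poly(A) before library construction, with a kit that keeps no strand, per the labels' protocols. For Hopx, Cav1 and Rtkn2, fragments of the gene and of the GENCODE antisense gene over it (Hopxos, Gm15581, Gm16212) thus cannot be told apart. The submitters' processing notes name FastQC, TopHat, Cuffdiff and mm10, with no versions or annotation. In the deposited table each gene and library has an estimated count, not normalized, of which 93.3% were whole (within 1e-06; 100.0% for the 10 genes), and an FPKM value, which the authors deposited after scaling across libraries, per the file headers. The authors' deposited table of Cuffdiff comparisons was read for its p-values and q-values, and the sign of its test score gave the direction.

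Of 23356 features, 5 of status HIDATA were dropped and 20 of status FAIL somewhere were kept. All 180 values of the 10 genes were OK. Their loci on mm10, 1-based, are Ager 17:34597850-34600937, Aqp5 15:99591028-99594829, Hopx 5:77086986-77115123, Pdpn 4:143267422-143299507, Cav1 6:17306335-17341328, Rtkn2 10:67979598-68043864, Akap5 12:76324891-76334151, Clic5 17:44188572-44280168, Emp2 16:10281749-10313968 and Gprc5a 6:135065662-135084708, all protein-coding genes.

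Rounded counts went into edgeR 4.0.16 (R 4.3.3) as 1 quasi-likelihood fit of all 18 libraries over 15388 genes that passed filterByExpr, with TMM factors and Benjamini-Hochberg adjustment over all of them at 0.05. The fit was tested on simulated data. Every adjusted p comes from it unless another tool is named. CPM are TMM-scaled, log2 CPM use a prior count of 2, SE is the log2 change over the root of F, and intervals are 95%. Groups are apart where no libraries overlap. Alternatives were DESeq2 1.42.0, its size factors within edgeR, leaving out the filter, limma 3.58.1 on FPKM after log2 with 1 or 0.1 added (genes at 1 FPKM in 3 libraries), a fit of the compared groups alone, a replicate block, dropping the 2 smallest libraries, and dropping each library in turn. Transcript length is that of the longest protein-coding transcript in GENCODE vM21, known for 90.1% of tested genes.

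The 10 genes, the lists and the tests were chosen with earlier results of these data known. The genes to name were the 10, Arrb1 and Arrb2, up to 4 called genes per list and comparison in order of p, and the 5 genes most like Ager and the mean of the 10. Some genes the rule allows are not reported here. Lists of markers of club, ciliated, basal, lymphatic, mesothelial, endothelial and heart muscle cells, fibroblasts, macrophages and adipocytes were summed per library.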

Additional observations from a re-analysis of the deposited data

Results flagged for a closer look

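Cav1 drew attention because its wild type and labelled beta-arrestin 2 -/- libraries moved in opposite directions under hypoxia, with no overlap between exposures in either. The difference of the log2 changes was 0.57 ± 0.18 (SE, adjusted p = 0.0672 in edgeR's quasi-likelihood test), so the difference itself did not pass. It passed with DESeq2 (adjusted p = 0.0162), with only the groups compared, and without wild type hypoxia replicate 0 or labelled beta-arrestin 2 -/- normoxia replicate 2 (0.63 and 0.66). It passed in 2 of 12 fits without 1 library, where it ran from 0.47 to 0.66 with adjusted p up to 0.153, and in 2 of 8 other settings, with adjusted p up to 0.0858.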

How the results depend on the processing

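Over the 10 genes and 10 comparisons, 1630 alternative values were computed, 840 of them with 1 library left out. Of these, 1594 kept their side of the threshold with no sign change beyond one SE, among them 60 that changed sign within one SE without a call. A call was lost in 3 and gained in 18. Another 15 changed sign and moved by more than one SE, without a call. The cause was not tested.

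In labelled beta-arrestin 2 -/- hypoxia against normoxia the 1 call became 3 with DESeq2, which called 4092 of all genes (25.7%), and 0 to 1 without 1 library. Over the mean of the responses 0 became 3 without the 2 libraries of lowest total and 0 to 1 without 1 library. In beta-arrestin 1 -/- normoxia against wild type, 0 became 1 (Gprc5a) with DESeq2 and 1 with only the groups compared. In labelled beta-arrestin 2 -/- normoxia against wild type, 0 became 1 (Clic5) with DESeq2, 1 with only the groups compared and 0 to 2 without 1 library, Clic5 and Emp2 (-0.53) passing without labelled beta-arrestin 2 -/- normoxia replicate 2. For the response of that label minus that of wild type, 0 became 1 (Cav1) with DESeq2, 1 with only the groups compared and 0 to 1 without 1 library.

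Without the 2 libraries of lowest total the sign turned for Ager (-0.07) and Hopx (-0.12) in beta-arrestin 1 -/- hypoxia, for Ager over the mean of the responses (-0.18), and for Ager (-0.11) and Clic5 (0.19) in beta-arrestin 1 -/- against wild type hypoxia. Without 1 library, values in wild type hypoxia against normoxia ran from -0.39 to 0.00 for Akap5. In beta-arrestin 1 -/- hypoxia against normoxia they ran from -0.07 to 0.55 for Ager, -0.12 to 0.20 for Hopx, -0.10 to 0.13 for Cav1 and -0.19 to 0.25 for Clic5. They ran from -0.20 to 0.16 for Emp2 in labelled beta-arrestin 2 -/- hypoxia, from -0.13 to 0.08 for Ager over the mean of the responses, and, in beta-arrestin 1 -/- against wild type hypoxia, from -0.11 to 0.50 for Ager, -0.09 to 0.31 for Akap5 and -0.25 to 0.19 for Clic5.

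Counts over all genes moved by more than 1.5 times in most comparisons. Hypoxia against normoxia called 454 genes in beta-arrestin 1 -/- lungs (47 with only the groups compared, 833 with DESeq2, 133 to 197 without any 1 of its normoxia libraries). Under the label beta-arrestin 2 -/- it called 3370 (1710 to 2222 without its normoxia replicate 0 or 1 or its hypoxia replicate 0 or 2). In wild type it called 733 (1270 with DESeq2, 1455 without the 2 libraries of lowest total, 209 to 372 without normoxia replicate 0 or 1 or hypoxia replicate 1 or 2), and over the mean 2980 (4554 without beta-arrestin 1 -/- hypoxia replicate 2). Against wild type, beta-arrestin 1 -/- called 34 in normoxia (176 with DESeq2, 109 with only the groups compared, 87 without the 2 libraries of lowest total, 15 without its normoxia replicate 0) and 31 in hypoxia (150 with DESeq2, 12 with only the groups compared, 20 without wild type hypoxia replicate 1). Labelled beta-arrestin 2 -/- called 1460 in normoxia (2732 with DESeq2, 2638 with only the groups compared, 316 to 642 without its normoxia replicate 0 or 1 or any 1 wild type normoxia library). In hypoxia it called 142 (476 with DESeq2, 349 without the 2 libraries of lowest total, 84 with only the groups compared, 298 without wild type hypoxia replicate 0, and 52 to 79 without any other 1 of the 6 libraries). The difference of responses called 931 under that label (1866 with DESeq2, 1540 with only the groups compared, 1491 without the 2 libraries of lowest total, 2022 without wild type hypoxia replicate 0, and 313 to 534 without any other 1 of the 12 libraries except normoxia replicate 2 of either line, at 824 and 1034).

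Replicate numbers did not pair the libraries, since same-numbered libraries correlated in their deviations at -0.46 to 0.47 over 45 pairs, with 14 above 0.1. With the replicate block Aqp5 under the label beta-arrestin 2 -/- was at -0.51 (adjusted p = 0.0211, edgeR), and the block changed no call of the 10 genes. Each of the 10 genes had at least 3131 fragments in every library, and the part of library depth in their values was not tested. With 3 libraries a group, intervals as wide as those given leave small changes undetectable.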

Other observations

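Over the mean of the 3 hypoxia responses several partners of the type 1 gene products passed, where 19.4% of all genes did. Itgb3, the integrin β3 chain that pairs with the α-v chain, had 49.8, 55.5 and 50.9 CPM in beta-arrestin 1 -/- hypoxia, against 65.5, 64.2 and 62.2 CPM in normoxia. Under the label beta-arrestin 2 -/- it had 38.2, 39.5 and 38.0 CPM in hypoxia, against 64.7, 60.9 and 63.2 CPM in normoxia, and in wild type 57.2, 63.0 and 43.8 CPM in hypoxia, against 86.4, 81.1 and 70.4 CPM in normoxia. All 3 pairs were apart, and Itgb3 fell by 0.51 ± 0.06 on the log2 scale (SE, adjusted p = 5.69e-05, edgeR). Cdkn1a, the cell cycle inhibitor p21 and a gene of the transitional alveolar state, fell by 1.10 ± 0.20 (adjusted p = 0.00119).

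S100a8 and S100a9, neutrophil proteins that bind RAGE, rose over the mean of the responses by 2.43 ± 0.44 (SE, adjusted p = 0.0013, edgeR) and 2.13 ± 0.43 (adjusted p = 0.00265). S100a8 had 50.4, 40.0 and 120.7 CPM in beta-arrestin 1 -/- hypoxia, against 5.05, 13.9 and 3.94 CPM in normoxia, and these groups were apart. In wild type it had 23.4, 17.3 and 75.0 CPM in hypoxia, against 4.22, 2.49 and 21.6 CPM in normoxia, which overlapped. These calls and those of Itgb3 and Cdkn1a remained in all 18 fits without 1 library.

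Markers of the other cell types were counted in labelled beta-arrestin 2 -/- hypoxia against normoxia, where 21.9% of all genes were called. The test called 0 of 6 club cell markers higher and 1 lower, 0 of 5 ciliated cell markers higher and 1 lower, and 0 of 4 basal cell markers. It called 3 of 11 endothelial markers higher and 1 lower, 3 of 6 lymphatic markers higher and 1 lower, 0 of 9 heart muscle markers, 1 of 8 fibroblast markers higher and 3 lower, 0 of 7 macrophage markers and 1 of 6 adipocyte markers higher. Lep, an adipocyte marker, and Krt5, a basal cell marker, were at 0 in some library.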
